A study of Drosophila melanogaster with 14 samples.

Results

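The step from stage 3 (530 min) to stage 4 (645 min) of Drosophila melanogaster embryogenesis was read from small RNA libraries of whole embryos. The libraries were chosen by their labelled stage, which gave 2 of stage 3 and 2 of stage 4, 4 of the 14 libraries of a time course over 7 stages. The labels give stage, time and the tissue embryo, with no genotype, strain or treatment, and do not say from what point the minutes were counted or whether 2 libraries with the same label are from different embryo collections. P-values therefore measure the spread between these libraries, which may be technical. Reads were counted per mature arm, where an arm is either strand (5p or 3p) of the miRNA hairpin.

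Mature miRNAs are short RNAs that guide the silencing complex to messenger RNAs by pairing with their untranslated regions. Usually 1 arm of a hairpin is loaded into that complex and the other is degraded, and hairpins that lie close together are often cut from 1 primary transcript. In the fly embryo the miR-309 cluster is switched on in the blastoderm, where it helps to clear maternal messenger RNA, and tissue-restricted miRNAs appear as organs form.

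Total counts were 48151 and 35262 in stage 3 replicates 1 and 2, and 33956 and 66072 in stage 4 replicates 1 and 2. Of 466 arms in the table, 251 had a count in some library and 85 were abundant enough to test, and these 85 held 99.56% to 99.7% of counts in the 4 libraries. The widest exact binomial interval (95%) of any share in these libraries reached 0.518 percentage points to either side, and such intervals cover counting error only. Arms known from outside the embryo stayed rare. The let-7 complex, known from metamorphosis, took at most 0.0147% of a library, and the testis-enriched clusters between 0.0383% and 0.0768%. The labels also tie every library to a numbered mRNA sample of an earlier study. Those numbers rise with stage except in 1 library: stage 4 replicate 2 carries 38, between the 36 and 39 of the stage 3 libraries, while stage 4 replicate 1 carries 52. The labelled stages were kept, and results are given with each stage 4 library alone as well as with both.

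The first question was how much of the miRNA pool changed hands, and this was asked of each stage 4 library separately. The exchanged share is the sum of all gains in share of counts, in percentage points, which equals the sum of all losses. Stage 4 replicate 1 had exchanged 32.3 points with the stage 3 mean and stage 4 replicate 2 had exchanged 42.3 points. Between the libraries of stage 3 the exchange was 5.03 points, and between those of stage 4 it was 13.97 points. The step was thus larger in both libraries than the difference within stage 3 or stage 4. The stage 4 libraries differed from each other more than the stage 3 libraries did. At the other stages, libraries with the same label differed by 2.01 points (stage 2) to 23.98 points (stage 7). With 2 libraries a stage the exchange is given as a description, with no test.

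Most of the movement was shared. Gains common to both stage 4 libraries came to 28.9 points and common losses to 31.8 points. Of 156 arms whose share moved in both, those that moved in opposite ways carried 0.312 points of the change in replicate 1 and 0.187 points in replicate 2. The losses were concentrated: 4 arms made up 90% of them in each library. The gains were spread more widely, with 12 arms in replicate 1 and 14 arms in replicate 2 making 90%.

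**Figure D1:**
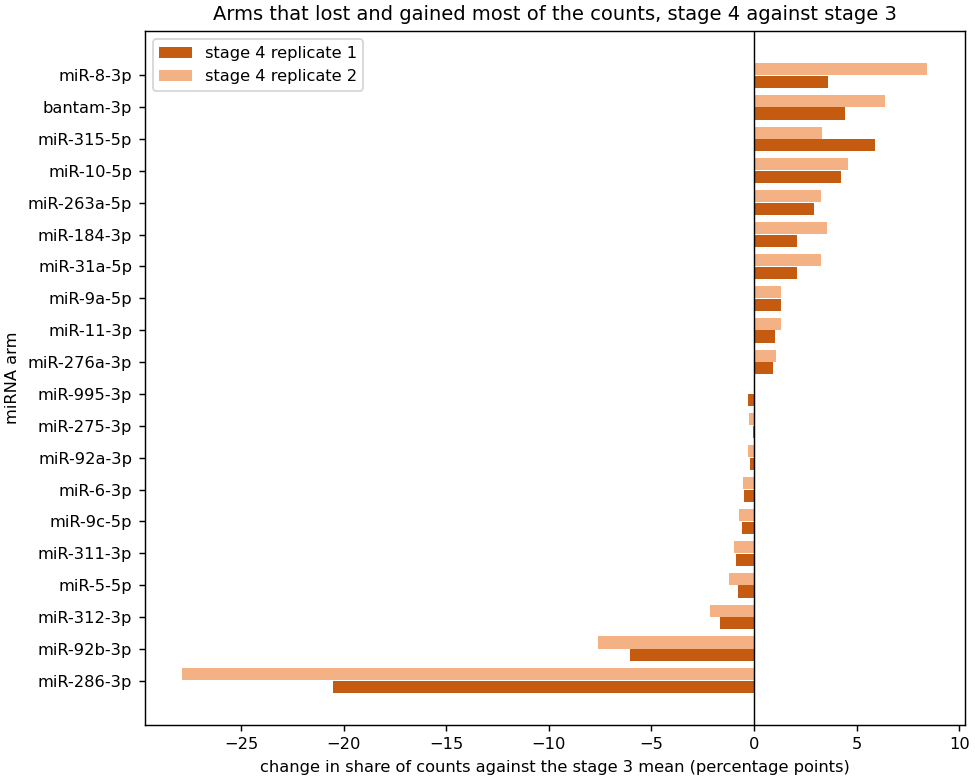
Change in share of counts (percentage points, horizontal axis) of the 10 arms with the largest mean loss and the 10 with the largest mean gain, as separate bars for stage 4 replicate 1 and replicate 2 against the mean of both stage 3 libraries. miR-286-3p changed by -20.5 and -27.9 points, and the gains were divided among miR-8-3p, bantam-3p, miR-315-5p, miR-10-5p and others.

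miR-286-3p, the leading product of the miR-309 cluster, gave up the most. It took 59.0% and 57.3% of counts in the stage 3 libraries (95% intervals 58.6% to 59.5% and 56.8% to 57.9%), and 37.7% and 30.3% in the stage 4 libraries (37.2% to 38.2% and 29.96% to 30.7%). Its loss was 63.6% of all losses in replicate 1 and 65.9% in replicate 2. miR-92b-3p, from the neuroblast gene jigr1, lost the next most, from 9.67% and 10.4% to 3.97% and 2.39%. For both arms all stage 4 libraries lay below all stage 3 libraries, and replicate 2 lay lowest. miR-312-3p followed, with changes of -1.68 and -2.17 points, and then miR-5-5p, with -0.772 and -1.21 points.

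On the gaining side, miR-8-3p, the fly relative of the vertebrate miR-200 family, took 0.467% and 0.261% of counts in stage 3 and 3.98% and 8.81% in stage 4. bantam-3p, a growth-promoting miRNA that represses the cell death gene hid, went from 1.93% and 1.20% to 6.01% and 7.95%. Both were highest in stage 4 replicate 2. miR-315-5p, an activator of Wingless signalling that is known from the embryonic nervous system, went from 0.0768% and 0.519% to 6.17% and 3.62%, and was highest in replicate 1. miR-31a-5p, related to vertebrate miR-31, went from 0.0561% and 0.0539% to 2.16% and 3.32%. With the gains went a more even pool: the effective number of arms (the exponential of the Shannon entropy) was 6.55 and 6.84 in stage 3 and 13.4 and 16.0 in stage 4, and 90% of counts were held by 11 and 12 arms in stage 3 against 16 and 18 in stage 4.

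Shares of 1 library sum to a whole, so part of any gain mirrors the fall of miR-286-3p. With miR-286-3p left out and the rest rescaled, the exchange was 37.9 points in replicate 1 and 44.2 points in replicate 2, so the other arms had changed their proportions too. In this rescaled pool miR-92b-3p fell from 23.6% and 24.3% to 6.37% and 3.43%.

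Each arm was then tested with edgeR's quasi-likelihood test on TMM-scaled counts (a scaling that sets the bulk of arms level between libraries), with Benjamini-Hochberg adjusted p below 0.05 over the 85 arms. Of the 85, 30 differed between stage 4 and stage 3 (35.3%), 16 higher (18.8%) and 14 lower (16.5%). The same test called 15 arms from stage 1 to stage 2, 12 from stage 4 to stage 5, and none at the steps to stages 3, 6 and 7, but neighbouring steps share libraries and the steps were not tested against each other. The 16 higher arms took 2.68% and 2.31% of the stage 3 libraries and 20.3% and 27.1% of the stage 4 libraries. The 14 lower arms went from 79.9% and 79.6% to 48.2% and 37.7%. The 14 carried 97.8% of the losses in replicate 1 and 99.4% in replicate 2. Only 55.3% and 58.2% of the gains lay in arms that passed as higher, and 44.0% and 41.1% lay in tested arms that did not pass.

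**Figure D2:**
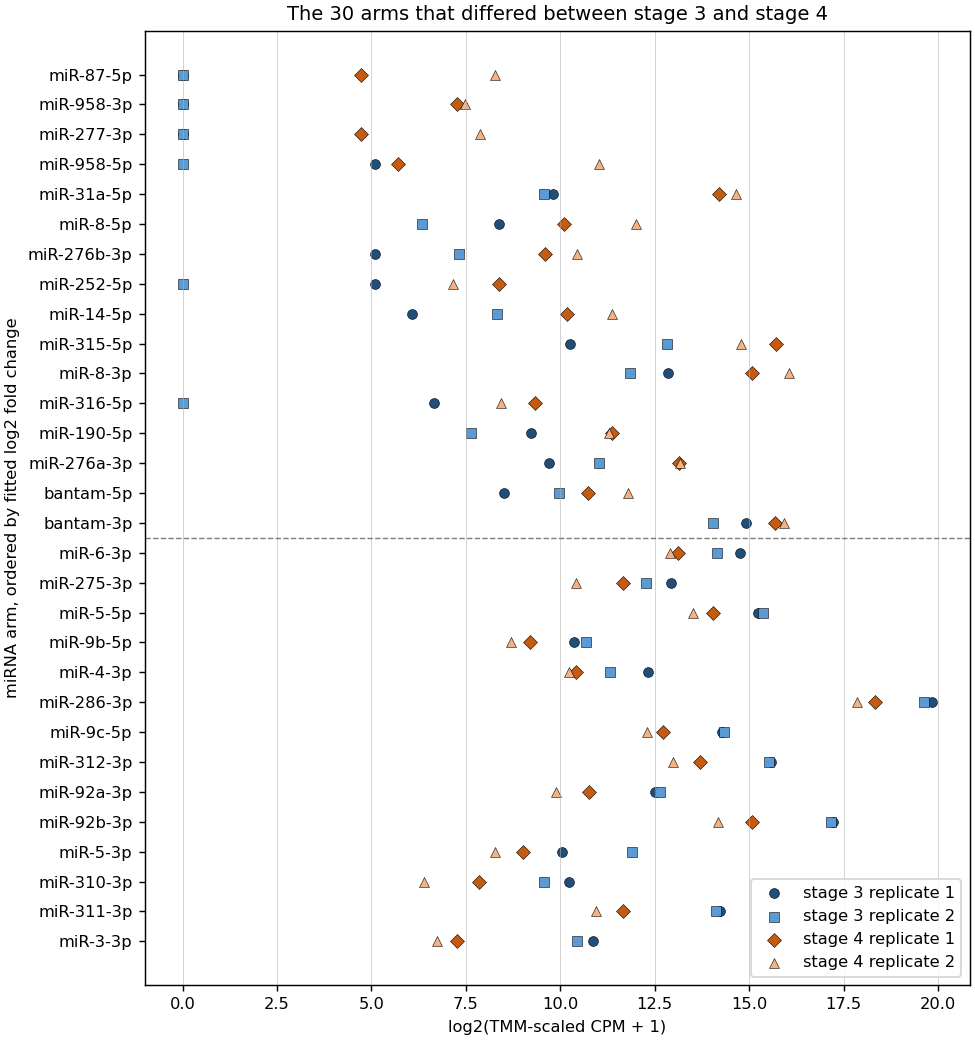
Level of the 30 arms that passed the test in each of the 4 libraries, as log2 of TMM-scaled CPM plus 1 (horizontal axis, where CPM is counts scaled to the library total), ordered by fitted fold change; the dashed line separates the 16 higher from the 14 lower arms. For each of these arms both stage 4 libraries lie on 1 side of both stage 3 libraries.

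Both stage 4 libraries lay above both stage 3 libraries in 28 of 85 arms (32.9%) and below in 30 of 85 (35.3%) on the TMM scale. The scaling matters for the balance of rises and falls: under DESeq2 size factors the fold changes shifted upward, by a median of 0.49 on the log2 scale, and under plain library size by 0.86. Scaled by library size, 33 arms passed as higher and 8 as lower (80.5% of calls higher, against 53.3% with TMM). DESeq2 size factors gave 19 and 11 (63.3%), and DESeq2 itself gave 25 and 11 (69.4%). With a mean count of at least 50, where only 39 arms were tested, the balance was 7 to 13 (35.0% higher). None of the 30 called arms turned its sign in any of the 10 alternatives, and 14 of them passed in every alternative that tested them.

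Among abundant rises, miR-31a-5p had the largest log2 fold change, 4.75 ± 0.479 (SE, 2 libraries a stage; adjusted p = 4.94e-07 in edgeR), from 27 and 19 counts to 732 and 2195. Its near relative miR-31b-5p, from a hairpin on the X chromosome, had 13 and 14 counts in stage 3 and 9 and 23 in stage 4, and did not pass (-0.95 ± 0.604). The change of 31a was therefore not matched by 31b. The difference between them was not tested.

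Both arms of the miR-8 hairpin rose. miR-8-3p changed by 3.21 ± 0.404 on the log2 scale (adjusted p = 7.64e-06), or 3.81 without stage 3 replicate 1. The other arm, miR-8-5p, with 10 and 2 counts in stage 3 and 43 and 350 in stage 4, changed by 3.62 ± 0.788 (adjusted p = 0.00138 in edgeR). Replicate 2 of stage 4 was the highest library for both arms. Against stage 3 the fitted change of miR-8-5p was 2.36 with stage 4 replicate 1 alone, 4.20 with replicate 2 alone, 2.98 without stage 3 replicate 2 and 4.998 without stage 3 replicate 1. bantam rose on both arms as well, by 1.26 ± 0.327 for bantam-3p (adjusted p = 0.00534 in edgeR) and 1.97 ± 0.671 for bantam-5p (adjusted p = 0.0297). bantam-3p did not pass without stage 3 replicate 2 (0.89, adjusted p = 0.0853), and bantam-5p did not pass without stage 3 replicate 1 (1.41) or stage 4 replicate 2 (1.35), and had 2.85 without stage 3 replicate 2. Neither passed with a mean count of at least 50 (0.782 and 1.42, adjusted p = 0.120 and 0.152 in edgeR), and bantam-5p did not pass with the 4 libraries alone (adjusted p = 0.0683).

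miR-315-5p rose by 3.27 ± 0.649 (adjusted p = 0.000883), and its 2095 and 2393 counts in stage 4 lay above both stage 3 libraries. The stage 3 libraries lay far apart for this arm. With stage 3 replicate 1 as the sole earlier library the value was 5.06, with replicate 2 it was 2.48, and it passed either way. Its mean share was 4.90% in stage 4 and 3.09% in stage 5. miR-276a-3p, which acts on a dopamine receptor in adult olfactory memory, rose by 2.66 ± 0.4699 (adjusted p = 0.000258) and the closely related miR-276b-3p by 3.52 ± 0.785 (adjusted p = 0.00184). Without stage 3 replicate 2 their values were 3.46 and 4.93, and without stage 3 replicate 1 they were 2.14 and 2.75. The hairpins of miR-276a and miR-276b lie apart on chromosome 3L (10365228 to 10365325 and 10319785 to 10319883, dm6), and how reads were divided between such similar arms is not given in the sources used here. miR-190-5p, whose hairpin lies in an intron of the talin gene rhea, rose by 2.66 ± 0.535 (adjusted p = 0.000883), from 18 and 5 counts to 103 and 214, and had 3.67 without stage 3 replicate 1.

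A further group rose from almost nothing. miR-958-5p had 1 and 0 counts in stage 3 and 2 and 176 in stage 4 (ratio 79.3, 95% counting interval 14.04 to 3148; edgeR adjusted p = 0.0106). miR-316-5p had 3 and 0 against 25 and 29 (ratio 8.01, interval 2.60 to 40.1), and miR-252-5p had 1 and 0 against 13 and 12 (ratio 11.1, interval 1.82 to 457). These ratios sum the counts of both libraries of a stage, and their intervals leave out the spread between libraries. miR-316-5p and miR-252-5p had similar raw counts in both stage 4 libraries and were higher per depth in replicate 1 (640 against 341 and 333 against 141 TMM-scaled CPM), whereas miR-958-5p was nearly all in replicate 2. Its fitted log2 fold change was 1.37 with stage 4 replicate 1 alone and 6.59 with replicate 2 alone, so its interval does not hold for replicate 1. Arms without a stage 3 count were set against a floor of 3 counts over that stage. For these the counts of both stage 4 libraries were summed, and their own counting error was left out. On this measure miR-87-5p, at 1 and 26 counts, was at least 4.01-fold higher. miR-958-3p (6 and 15) and miR-277-3p (1 and 20), a regulator of amino acid catabolism, were each at least 3.12-fold higher. Stage 4 replicate 1 held only 1 count each of miR-87-5p and miR-277-3p, so their bounds rest on replicate 2. miR-958-5p, miR-277-3p, miR-87-5p and miR-958-3p did not pass without stage 4 replicate 2 or without either stage 3 library. Among the fits that left out 1 of the 4 libraries, miR-252-5p passed only without stage 4 replicate 2. miR-316-5p did not pass without stage 3 replicate 2. miR-277-3p, miR-87-5p, miR-958-3p, miR-252-5p and miR-316-5p also did not pass with the 4 libraries alone.

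Among the falls miR-3-3p, another product of the cluster that holds miR-286, had the largest fitted change, -3.67 ± 0.594 (adjusted p = 0.000104 in edgeR), from 56 and 35 counts to 6 and 9. In that miR-309 cluster 6 of 7 tested arms fell, against 16.5% of all 85 arms, and the median log2 fold change was -1.63 against 0.23. The log2 fold change was -1.63 ± 0.353 for miR-286-3p (adjusted p = 0.00138 in edgeR), -2.58 ± 0.666 for miR-5-3p and -1.501 ± 0.396 for miR-5-5p. It was -1.47 ± 0.3897 for miR-6-3p and -1.58 ± 0.594 for miR-4-3p. miR-4-5p had -1.90 ± 0.83 and did not pass (adjusted p = 0.0745). The cluster took 63.8% and 62.2% of the stage 3 libraries and 40.9% and 33.0% of the stage 4 libraries. Within it only miR-3-3p and miR-286-3p passed in every alternative that tested them. With stage 4 replicate 1 alone, miR-5-3p, miR-5-5p, miR-6-3p and miR-4-3p did not pass (adjusted p = 0.0579 to 0.178), and miR-5-5p, miR-6-3p and miR-4-3p were also lost under plain library size. miR-5-3p had -1.40 without stage 3 replicate 2, where it did not pass, and -3.23 without stage 3 replicate 1. miR-6-3p and miR-4-3p did not pass without stage 3 replicate 1 either (-1.13 and -0.999), miR-6-3p was also lost without the filter, and miR-4-3p was lost in 8 of the 10 alternatives.

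The miR-310 cluster, whose main arms share the seed of miR-92, had 3 of 5 tested arms lower, against 16.5% of all arms, and a median of -2.17 against 0.23. The others did not pass, at -1.70 ± 1.22 for miR-313-3p and 1.08 ± 1.27 for miR-311-5p, whose sign turned without stage 4 replicate 1. miR-311-3p fell by 2.83 (SE 0.437, adjusted p = 6.91e-05), from 575 and 447 counts to 127 and 166. miR-312-3p fell by 2.17 (SE 0.471, adjusted p = 0.00138), and miR-310-3p by 2.73 (SE 0.717, adjusted p = 0.00547), from 36 and 19 counts to 9 and 7. miR-310-3p did not pass with stage 4 replicate 1 alone (-2.07, adjusted p = 0.0827) or without stage 3 replicate 1 (-2.37, adjusted p = 0.0552), and had -3.58 with stage 4 replicate 2 alone. Both jigr1 arms fell, miR-92b-3p by 2.50 (SE 0.3303, edgeR adjusted p = 1.05e-05) and miR-92a-3p by 2.20 (SE 0.508, edgeR adjusted p = 0.00215). How reads were divided between these related arms is not given in the sources used here. The miR-92a hairpin lies in an intron of jigr1 and that of miR-92b in its 3′ UTR, on chromosome 3R.

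The cluster in an intron of grp, the checkpoint kinase gene, held 2 lower arms of 4 tested (median -1.41), where 16.5% of all arms were lower and the median was 0.23. miR-9c-5p fell by 1.79 (SE 0.426, adjusted p = 0.00272), from 1.24% and 1.48% of counts to 0.775% and 0.646%, and was lost under plain library size. miR-9b-5p fell by 1.57 (SE 0.572, adjusted p = 0.0382), and this call ended in 8 of the 9 alternatives that tested it. miR-306-5p (-1.24 ± 0.634) and miR-9b-3p (-0.23 ± 0.583) did not pass. The sign of miR-9b-3p turned with DESeq2 size factors, library size alone, DESeq2, no filter, and without stage 4 replicate 2. miR-275-3p fell by 1.49 (SE 0.528, adjusted p = 0.0345), while miR-305-3p (-1.17 ± 0.507) and miR-305-5p (-0.64 ± 0.683) of the neighbouring hairpin did not pass. Where only arms averaging 50 counts or more were kept, miR-305-3p was called lower (-1.63, adjusted p = 0.0272). It was also called when replicate 2 of stage 3 was left out (-1.56, adjusted p = 0.0396). The call of miR-275-3p ended in 7 of the 10 alternatives, among them stage 4 replicate 1 alone (-0.989, adjusted p = 0.279), and with replicate 2 alone it had -2.27.

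Lists of miRNAs grouped by tissue or position were described by their counts, to be read against 18.8% higher, 16.5% lower and a median of 0.23 over all 85 arms. The nervous system list held 8 arms with a count, of which 4 were tested. miR-124-3p and miR-87-3p, also chosen as markers, were not among the tested arms. Of the 4 tested arms 2 rose, miR-87-5p and miR-315-5p. The other tested arms, miR-124-5p (1.65 ± 0.6895, edgeR adjusted p = 0.0664) and miR-1000-5p (1.27 ± 0.782), did not pass. miR-124-5p passed as higher with DESeq2 size factors (2.15, adjusted p = 0.0262), library size (2.47, adjusted p = 0.0139), and DESeq2 (2.16, adjusted p = 0.00746). It also passed when replicate 2 of stage 3 was left out (3.58, adjusted p = 0.00656), and had 0.816 when replicate 1 was. miR-1000-5p passed under library size (2.13, adjusted p = 0.0305). Their median was 2.46, or 1.83 with miR-87-5p at its bound. The list took 0.102% and 0.604% of the stage 3 libraries and 6.47% and 3.97% of the stage 4 libraries, nearly all of it miR-315-5p. Of 12 epithelial and gut arms 4 rose (miR-14-5p, miR-31a-5p and both miR-8 arms), 1 fell (miR-275-3p) and 7 did not pass, and the median was -0.29. The list took 1.99% and 1.45% of the stage 3 libraries and 7.57% and 14.5% of the stage 4 libraries. Both muscle arms stayed rare, with 5 and 18 counts of miR-1-3p and 5 and 11 counts of miR-133-3p in the stage 4 libraries, and neither passed. In bulk embryos more cells of a type and more RNA per cell cannot be told apart.

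Several abundant arms gained share without passing the test. miR-10-5p, encoded in the Antennapedia complex, went from 4.05% and 4.34% to 8.42% and 8.77% of counts, but its TMM-scaled change was 0.17 ± 0.288. miR-263a-5p, which protects sensory bristle cells, went from 3.79% and 4.36% to 6.98% and 7.32%, with a TMM-scaled change of -0.05 ± 0.2902. The sign of each depended on the setting: miR-10-5p had -0.30 with a mean count of at least 50 but passed as higher under plain library size (1.04, adjusted p = 0.00563) and in DESeq2 (0.66, adjusted p = 0.0328). miR-263a-5p passed as higher under plain library size (0.81, adjusted p = 0.0147) and in DESeq2 (0.44, adjusted p = 0.0307). miR-184-3p, known from the female germline, had 1.33% and 1.36% in stage 3 and 3.43% and 4.91% in stage 4, and a change of 0.75 ± 0.308 (adjusted p = 0.0639). It passed as higher with DESeq2 size factors (1.26, adjusted p = 0.00846), library size (1.63, adjusted p = 0.000529) and DESeq2 (1.26, adjusted p = 0.00092). With TMM scaling no arm passed among 4 Hox cluster arms, 7 sensory organ arms, 2 arms of the miR-12 cluster or 4 arms hosted by cell cycle genes. This too depended on the scaling. Under plain library size all 4 Hox arms passed as higher (miR-10-3p, miR-10-5p, miR-993-3p and miR-iab-4-5p), as did miR-263a-5p, miR-263b-5p, miR-9a-5p, miR-283-5p and miR-11-3p. DESeq2 called both miR-10 arms, miR-263a-5p and miR-9a-5p. miR-995-3p, from an intron of the cell cycle kinase gene Cdk2, went from 1.15% and 1.09% to 0.816% and 1.19% of counts and had -1.05 ± 0.4097 (adjusted p = 0.0534). Its shares overlapped between the stages, but among arms averaging 50 counts or more it was called lower (-1.54, adjusted p = 0.0025). The K-box list counted 5p as well as 3p strands of its hairpins, so not all of its arms need carry that seed. Of its 8 tested arms only miR-6-3p passed with TMM scaling, and no other 3p arm did.

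The exchange lay mainly between hairpins. Summing both arms of each hairpin left 32.1 of the 32.3 points in replicate 1 and 42.3 points in replicate 2. Of 21 hairpins with at least 50 counts in each of the 4 libraries, miR-14, a suppressor of cell death, had the largest shift in arm use. Its 5p arm took 1.08% and 5.67% of the hairpin's counts in stage 3 (exact 95% intervals 0.130% to 3.83% and 2.48% to 10.9%), and 29.2% and 43.4% in stage 4 (22.2% to 37.1% and 39.1% to 47.8%). The stage 4 intervals lay wholly above those of stage 3. In the arm-level test miR-14-5p rose by 3.35 ± 0.706 (adjusted p = 0.00138, from 2 and 8 counts to 45 and 226), while miR-14-3p had -0.86 ± 0.417 (adjusted p = 0.113, 0.382% and 0.377% of counts to 0.321% and 0.446%) and a sign that turned under plain library size (0.0199). Among arms averaging 50 counts or more it was called lower (-1.36, adjusted p = 0.0126). The rise of miR-14-5p passed with either stage 4 library alone, at 2.61 for replicate 1 and 3.80 for replicate 2, and ran from 2.58 to 4.80 as either stage 3 library was left out. In miR-9b the 5p share went from 66.7% and 70.7% to 41.1% and 55.6%, with overlapping intervals. The difference in response between the arms of a hairpin was not itself tested.

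**Figure D3:**
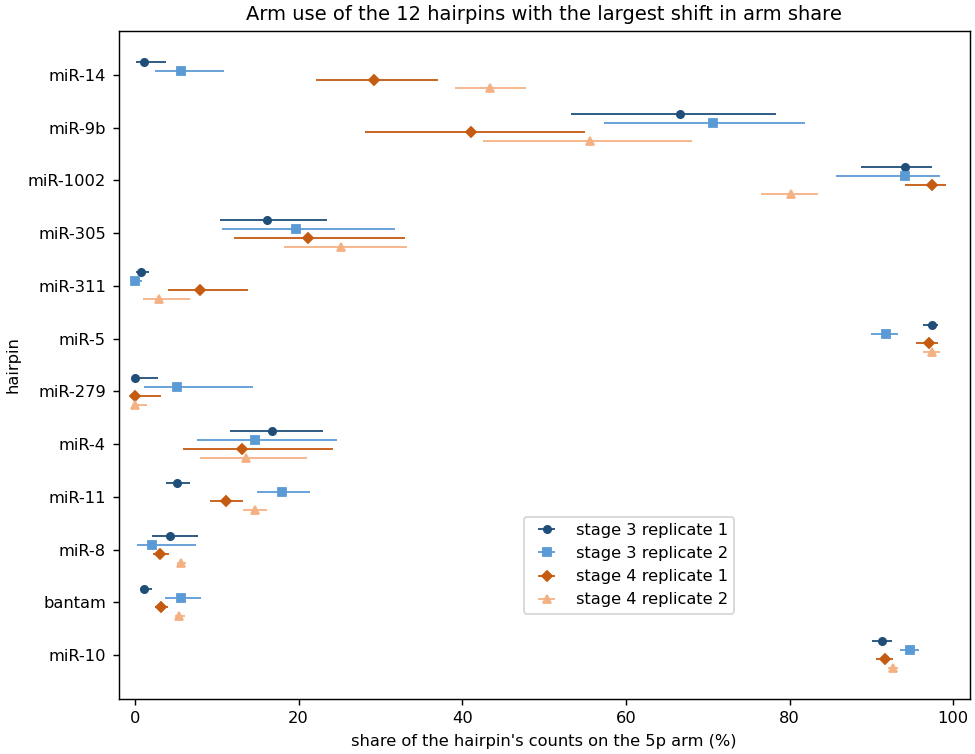
Share of each hairpin's counts on the 5p arm (percent, horizontal axis) in the 4 libraries, for the 12 hairpins with the largest shift from stage 3 to stage 4; points are single libraries and bars are exact binomial 95% intervals. miR-14 moved from 1.08% and 5.67% to 29.2% and 43.4%.

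The stage 4 libraries were also compared singly with stage 3. Both comparisons use the same stage 3 libraries, and each assumes that a lone library varies like the other stages. Replicate 1 gave 19 calls of 85 (22.4%), 11 higher (12.9%) and 8 lower arms (9.41%), and replicate 2 gave 17 higher (20%) and 13 lower (15.3%). With replicate 1 the calls outside the 30 were 1 arm, miR-33-5p (-1.98, adjusted p = 0.0494, against -0.86 in replicate 2). With replicate 2 they were miR-956-3p and miR-1002-3p. The main contrast between the stage 4 libraries lay in miR-286-3p (-7.36 points, replicate 2 minus replicate 1) and miR-8-3p (4.83 points higher), then in miR-315-5p (-2.55 points), which unlike the first pair had the sign opposite to that of the step.

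Some arms were present in 1 stage 4 library and nearly missing in the other. miR-956-3p had 51 counts in replicate 2 and 0 in replicate 1, where 26.2 would be found at the same share and where 3 counts, the limit that a count of 0 allows, are 0.00883% of the library. miR-958-5p had 176 counts against 2, where 90.5 would be found at the same share. miR-1002-3p had 105 against 5, where 53.96 would be found. The gap was thus larger than the difference in depth.

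**Figure D4:**
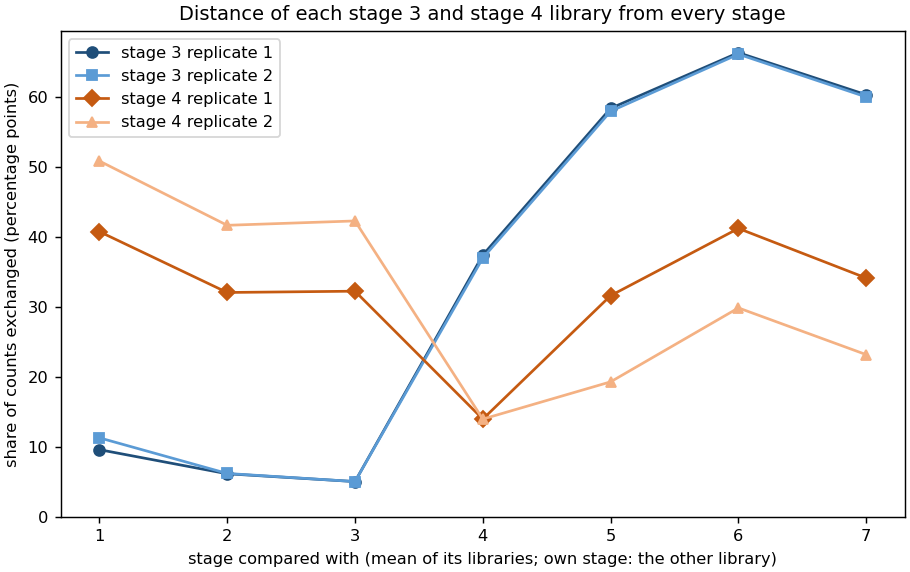
Share of counts exchanged (percentage points, vertical axis) between each stage 3 and stage 4 library and the mean of every stage (horizontal axis), with the other library of the same stage in place of the mean at its own stage. The stage 3 libraries lie within 11.3 points of stages 1 to 3, and stage 4 replicate 2 lies nearer to stage 5 (19.3) than replicate 1 does (31.6).

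Placed among all stages, both stage 3 libraries were within 11.3 points of stages 1 and 2 and 58.0 to 58.4 points from stage 5. Each stage 4 library was nearest to the other, at 13.97 points. Among single libraries of other stages, stage 7 replicate 2 was nearest to both, at 25.3 points from replicate 1 and 15.0 from replicate 2. The means of stages 6 and 7 stood 41.3 and 34.2 points from stage 4 replicate 1, and 29.9 and 23.2 from replicate 2. Replicate 1 stood about equally far from stage 2 (32.1), stage 3 (32.3) and stage 5 (31.6), whereas replicate 2 stood 19.3 points from stage 5 and 42.3 from stage 3. The library whose mRNA sample number falls among those of stage 3 was therefore the one further from stage 3 in its miRNAs. Why the stage 4 libraries differ was not tested.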

How the data were processed

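Small RNA was measured in 14 embryo libraries. Per the labels' protocols, TRIzol total RNA entered a scaled-down Illumina TruSeq small RNA preparation. Raw, unscaled counts per arm were deposited; per the submitters' processing notes Bowtie, HTSeq and build dm6 were used, and the treatment of multiply matching reads is not given in the sources used here.

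Columns were matched to libraries by title, and replicates were numbered in accession order without pairing. Counts were fitted in R 4.3.3 with edgeR 4.0.16 (filterByExpr by stage, TMM; 14 libraries, a coefficient for each stage, leaving 7 residual degrees of freedom); standard errors came from the fold change and the F statistic. Totals ran from 17462 to 72507 counts. Alternatives used other scaling, filters, DESeq2 1.42.0, the 4 libraries alone, or left out 1 library. All kept the 85 arms except those that changed the filter, which tested 39 or 251 arms. The code was tested on simulated data. Shares and exact intervals were computed in Python 3.11.15 with scipy 1.17.1, and figures with matplotlib 3.10.9. Hairpins (151 of 160 names) were placed with an Ensembl annotation of dm6.

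Members, lists and alternatives were chosen with earlier results of these data known. Arms to name were taken by a rule: all past the threshold, the 10 largest gains and losses of share, the 10 largest differences between the stage 4 libraries, up to 4 arms per list and partner arms. Some list members and partner arms appear by count only. Both arms of miR-305, miR-263b-5p, miR-313-3p, miR-31b-5p, miR-33-5p, miR-956-3p, miR-1002-3p and, among the other observations, several arms with few counts were named after their values were seen.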

Additional observations from a re-analysis of the deposited data

How the results depend on the processing

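The counts of 16 higher and 14 lower arms became 33 and 8 with library size alone, 25 and 11 with DESeq2, 7 and 13 with a mean count of at least 50, 19 and 11 with DESeq2 size factors, 18 and 11 without a filter, and 10 and 11 with the 4 libraries of stages 3 and 4 alone. Without 1 of the 4 libraries they ran from 10 to 17 higher and from 8 to 13 lower. Leaving out each other library, an alternative chosen after seeing the data, gave 13 to 19 higher and 11 to 16 lower. The exchanged share ran from 32.1 to 37.9 points for stage 4 replicate 1 and from 42.2 to 44.2 for replicate 2 over the alternatives. Summing arms by seed was not run. No paired analysis was possible because the labels carry no replicate numbers.

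Sign changes touched only arms that did not pass, among the 59 tested arms named by rule. With DESeq2 size factors the log2 fold changes were 0.42 for miR-11-3p, 0.36 for miR-12-5p, 0.44 for miR-263a-5p, 0.35 for miR-279-3p, 0.29 for miR-2a-3p, 0.16 for miR-2b-3p and 0.23 for miR-9b-3p. DESeq2 gave them 0.42, 0.36, 0.44, 0.34, 0.29, 0.16 and 0.23. With library size alone they were 0.81, 0.73, 0.81, 0.75, 0.64, 0.55 and 0.61, with 0.0199 for miR-14-3p and 0.13 for miR-996-3p. Without a filter they were 0.20 for miR-11-3p, 0.12 for miR-12-5p, 0.20 for miR-263a-5p, 0.12 for miR-279-3p, 0.0541 for miR-2a-3p and 0.0277 for miR-9b-3p. With a mean count of at least 50 they were -0.12 for miR-10-3p, -0.30 for miR-10-5p, -0.29 for miR-11-5p, -0.30 for miR-281-2-5p, -0.0901 for miR-283-5p and -0.26 for miR-9a-5p. Without 1 library the values ran from -0.0304 to 0.83 for miR-10-3p, -0.34 to 0.26 for miR-11-3p, -0.31 to 1.12 for miR-11-5p, -0.35 to 0.0401 for miR-12-5p, -0.0386 to 0.10 for miR-133-3p and -0.25 to 1.02 for miR-263a-3p. They ran from -0.55 to 0.42 for miR-279-3p, -0.45 to 0.68 for miR-281-2-5p, -0.51 to 0.21 for miR-2a-3p, -0.31 to 5.82 for miR-311-5p, -0.0165 to 0.51 for miR-9a-5p and -1.06 to 0.33 for miR-9b-3p. The causes were not tested. Of the 30 called arms, 14 passed in every alternative that tested them. As to depth, 1 count equals 29.4 CPM in stage 4 replicate 1 and 15.1 CPM in replicate 2, and a stage without a count is bounded only by the floor of 3 counts.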

Other observations

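Over all arms, tested or not, 48 had a count in stage 4 and none in stage 3. Of these, 17 had counts in both stage 4 libraries, tested arms such as miR-87-5p and miR-958-3p among them. In the other direction, 20 arms had a stage 3 count and none in stage 4, where the largest stage 3 count was 5. The partner strands of arms in the report were among the arms that appeared: miR-315-3p had 6 and 2 counts in stage 4 replicates 1 and 2, and miR-316-3p had 1 and 3. Both arms of miR-375 appeared, miR-375-3p with 2 and 13 counts and miR-375-5p with 1 and 7. On summed stage 4 counts miR-375-3p was at least 2.23-fold higher against the floor (edgeR adjusted p = 0.0802). It passed with library size (edgeR adjusted p = 0.0373), without the filter (edgeR adjusted p = 0.0359) and in DESeq2 (adjusted p = 0.0488). Both arms of miR-927 appeared as well, miR-927-3p with 3 and 8 counts and miR-927-5p with 3 and 1. From the Hox clusters, miR-993-5p had 1 and 3 counts and miR-iab-8-5p 1 and 2. At these counts single libraries cannot show whether an arm was absent from stage 3.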
